A study of Homo sapiens with 15 samples.

Results

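U3, U8, U13 and U14 are small nucleolar RNAs (snoRNAs) of the box C/D class that act on the precursor of ribosomal RNA. They were followed here through 8 human genes, picked by name out of the 50037 genes of the count table: SNORD3A for U3, SNORD118 for U8, SNORD13 for U13, and SNORD14A, SNORD14B, SNORD14C, SNORD14D and SNORD14E for U14. The criterion was a role in cleavage or acetylation of ribosomal RNA, and no measured value entered it. Earlier results of these data were known when the genes were chosen. Small RNA sequencing was done on 15 libraries of cells labelled HEK-293, a line from human embryonic kidney with the genotype given as wild type, although the series title speaks of macrophages. The first group received GKT136901, a compound labelled as a NOX1/4 inhibitor, at 20 µM together with LPL:VLDL, which is very low-density lipoprotein (VLDL) treated with lipoprotein lipase. The second group received LPL:VLDL without the compound, and the third received VLDL and is titled pcDNA:VLDL. Incubation lasted 18 h in all 3 groups. Each group had 5 libraries, replicates 1 to 5, which the labels place in batches named experiments 2 to 6, with 1 library of every group in each experiment. Nothing in the labels says whether the experiments came from separate passages, so a p-value here reflects how far these libraries scatter, part of which may be technical.

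Most box C/D snoRNAs pair with ribosomal RNA and direct the methylation of a ribose, with fibrillarin, NOP56, NOP58 and SNU13 bound around boxes C and D. U3 instead pairs with the precursor to organize the small subunit processome and the cleavages that release 18S rRNA, and U8 is needed for the maturation of 5.8S and 28S rRNA, as shown in Xenopus. U13 acts with the acetyltransferase NAT10 on 18S rRNA. U14 guides a methylation in 18S rRNA, and in yeast it is also required for the production of 18S rRNA. U3, U8 and U13 have promoters of their own, while the U14 copies are cut out of introns of HSPA8, a heat shock cognate chaperone, and RPS13, a protein of the small ribosomal subunit.

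The U14 copies lay on chromosome 11, minus strand, of hg38. SNORD14C was annotated at chr11:123059335-123059422, SNORD14D at chr11:123058909-123058995 and SNORD14E at chr11:123058077-123058156, in introns of HSPA8. SNORD14C lay 50 and 73 bases from the nearest HSPA8 exons, SNORD14D 63 and 78 bases, and SNORD14E 95 and 157 bases. SNORD14A was annotated at chr11:17074653-17074744 and SNORD14B at chr11:17075778-17075868, in introns of RPS13. The GENCODE 29 transcripts (GRCh38) of all 5 copies are given here because they show what the copies share and what lets reads be told apart. Capitals mark the runs of 8 or more bases that all 5 hold:
SNORD14C: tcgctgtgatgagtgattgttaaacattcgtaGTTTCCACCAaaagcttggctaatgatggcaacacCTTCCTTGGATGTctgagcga
SNORD14D: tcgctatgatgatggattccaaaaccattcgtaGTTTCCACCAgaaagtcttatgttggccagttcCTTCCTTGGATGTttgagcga
SNORD14E: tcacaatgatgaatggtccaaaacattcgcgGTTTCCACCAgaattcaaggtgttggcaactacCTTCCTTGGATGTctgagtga
SNORD14A: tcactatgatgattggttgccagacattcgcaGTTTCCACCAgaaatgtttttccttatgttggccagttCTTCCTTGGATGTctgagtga
SNORD14B: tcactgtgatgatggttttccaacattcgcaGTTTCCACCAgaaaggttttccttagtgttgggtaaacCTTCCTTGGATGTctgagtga
SNORD14E is 85 bases long in GENCODE and 80 in the counted annotation.

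These U14 RNAs were 75.6% to 85.9% identical in pairs, and both the closest pair, SNORD14A and SNORD14B, and the least alike, SNORD14C and SNORD14E, share a host gene. They had a run of 10 bases and a run of 13 bases in common. The second run ends directly before box D, where box C/D guides pair with their target. A search on the RNA strand for box C, written NTGATGA, found it at positions 6 to 12 of all 5, and NTGATGA was in 79.3% of the 227 SNORD transcripts of 70 to 110 bases in GENCODE. Box D, written CTGA, followed the second run in SNORD14A, SNORD14B, SNORD14C and SNORD14E, while in SNORD14D the letters after the run were TTGA and CTGA was not found. CTGA was in 98.2% of those 227 transcripts and TTGA in 30.8%. Every stretch of 30 bases was particular to its copy among the 5, so reads of that length can be assigned to 1 of them.

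U3 is the opposite case. SNORD3A was annotated at chr17:19188016-19188232, plus strand, and 4 more full-length U3 genes lay on chromosome 17. Its GENCODE 29 transcript (GRCh38) is shown with capitals at the bases that differ in at least 1 of the other 4:
SNORD3A: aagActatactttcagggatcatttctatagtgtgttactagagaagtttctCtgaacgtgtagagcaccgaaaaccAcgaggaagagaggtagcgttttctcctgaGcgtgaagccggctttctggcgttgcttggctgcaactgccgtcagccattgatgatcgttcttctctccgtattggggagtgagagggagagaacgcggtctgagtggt
With positions counted from the 5′ end of the RNA, SNORD3B-1 and SNORD3B-2 differed from SNORD3A by A78C alone and were identical to each other. SNORD3C differed by G108A, and SNORD3D by A4G, C53T and A78C. A stretch found in SNORD3A and in none of the other 4 therefore has to hold positions 78 to 108, which takes 31 bases. Of all 30-base windows of SNORD3A, 0% were particular to it, against 5.62% of 40-base windows and 31.5% of 75-base windows. Reads that map to several places were left uncounted, so the SNORD3A count holds only part of the U3 reads. SNORD3B-1 and SNORD3B-2 had 0 counts in all 15 libraries, SNORD3C had 2 in all and SNORD3D had 5.

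**Figure D1:**
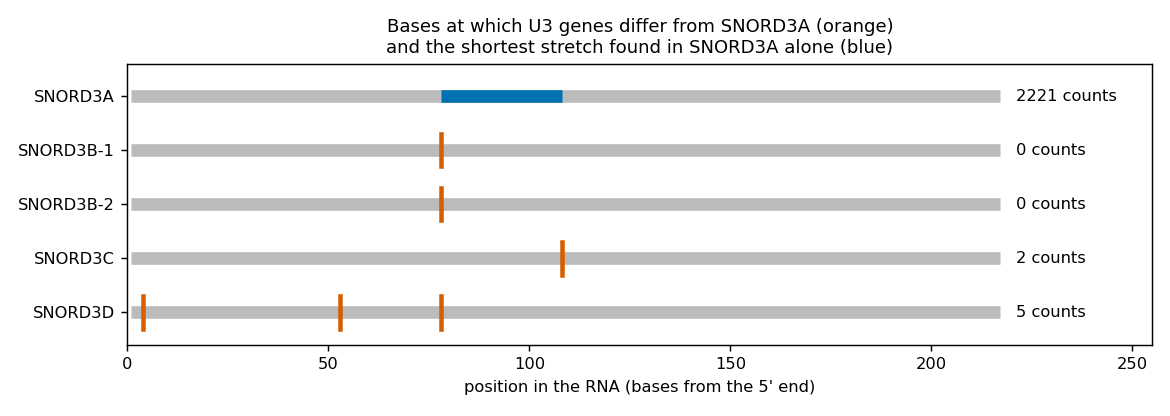
Map of the 5 full-length U3 genes, with position in the RNA in bases from the 5′ end on the x axis. Orange marks are bases that differ from SNORD3A, the blue bar is positions 78 to 108 of SNORD3A, and the total counts over 15 libraries at the right are 2221 for SNORD3A and 0 to 5 for the others.

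The libraries held 5076917 to 9757123 counts each, of which 47.5% to 65.9% fell on SNORD genes. The 8 genes together had 108052 counts, 0.0814% of all counts and 0.143% of those on tested SNORD genes, or 3738 to 9919 per library. For the HEK-293 label, the sums of 18 marker genes of that line (4 at 0 counts, NEFM, INA, LIN28B and KRT18; led by the growth regulator gene MYC, which many cell types express, with 894 of 1099 counts) ran from 5.41 to 15.5 CPM (counts per 1000000 counts of a library) in GKT136901+LPL:VLDL libraries, 3.07 to 15.8 CPM in LPL:VLDL libraries and 6.76 to 10.7 CPM in VLDL libraries. The sums of 18 myeloid markers (1 at 0 counts, AIF1) ran from 28.9 to 81.1 CPM, 28.1 to 127 CPM and 41.8 to 108 CPM in the same groups, led by the macrophage receptor gene CSF1R with 1771 counts in all. These are fragments of messenger RNA in small RNA libraries. In such bulk material, fewer cells of a type and less RNA per cell cannot be told apart.

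SNORD3A, the countable U3 gene, was low and uneven, with 57 to 330 counts per library. In experiments 2 to 6 its level, in CPM scaled with TMM factors (which correct for differences in composition), was 20.9, 12.3, 10.2, 9.71 and 18.3 CPM in GKT136901+LPL:VLDL cells. It was 17.8, 45.7, 11.5, 9.20 and 7.65 CPM in LPL:VLDL cells. In VLDL cells it was 29, 13.4, 13.4, 12.8 and 17.0 CPM. The LPL:VLDL library of experiment 3 stood above the other 14 and the groups overlapped. Without that library the log2 difference of GKT136901+LPL:VLDL minus LPL:VLDL was 0.31, against -0.36 with it. For LPL:VLDL minus VLDL it was -0.58 without the library and 0.098 with it.

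SNORD118, the U8 gene, had 0 counts in all 15 libraries. It lies at chr17:8173452-8173588 on the minus strand, and all 137 of its bases are inside an exon of TMEM107 on the same strand, in the untranslated part of that gene by GENCODE 29. The authors' counting discarded reads over exons of more than 1 gene, so the level of U8 cannot be read from these counts. TMEM107 itself had 46 counts in all.

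SNORD13, the U13 gene at chr8:33513475-33513578 on the plus strand, had 24235 counts and was the second most counted of the 8. It overlaps no exon of another gene and lies 339 bases from TTI2. Its levels in experiments 2 to 6 were 168, 161, 186, 185 and 224 CPM in GKT136901+LPL:VLDL cells. They were 133, 233, 158, 206 and 205 CPM in LPL:VLDL cells, and 124, 168, 173, 217 and 228 CPM in VLDL cells. The groups overlapped over most of their range, and in each of them experiments 5 and 6 were above experiment 2. The other 13 annotated U13 genes and copies had 13 counts together, of which SNORD13J had 6, and the other 13 U3 genes and copies had 47, of which SNORD3E had 21.

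U14 was the most counted of the 4 RNAs, with 81596 counts over its 5 copies. The 3 copies in HSPA8 held 97.1% of them (95.7% to 97.8% per library), and SNORD14C alone held 79.0%. SNORD14C was at 646, 448, 474, 366 and 478 CPM in GKT136901+LPL:VLDL cells of experiments 2 to 6. In LPL:VLDL cells it was at 543, 662, 440, 383 and 430 CPM, and in VLDL cells at 537, 469, 445, 463 and 434 CPM. The VLDL libraries had the narrowest range, and the ranges overlapped. The highest library was that of experiment 2 in GKT136901+LPL:VLDL and VLDL cells and that of experiment 3 in LPL:VLDL cells. SNORD14D, the copy with TTGA after the second run, was at 132, 83.0, 64.1, 59.5 and 63.5 CPM in GKT136901+LPL:VLDL cells. It was at 87.0, 123, 69.1, 51.9 and 53.4 CPM in LPL:VLDL cells and at 94.2, 76.0, 77.2, 68.6 and 55.5 CPM in VLDL cells. Experiments 2 and 3 held the high libraries in all 3 groups apart from the VLDL library of experiment 3, which the VLDL library of experiment 4 exceeded. SNORD14E ranged from 27.0 to 40.7 CPM in GKT136901+LPL:VLDL cells, 26.3 to 50.7 CPM in LPL:VLDL cells and 25.2 to 36.6 CPM in VLDL cells.

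The copies in RPS13 were far lower. SNORD14A ranged from 7.66 to 17.0 CPM in GKT136901+LPL:VLDL cells, 8.32 to 14.7 CPM in LPL:VLDL cells and 10.1 to 21.5 CPM in VLDL cells. SNORD14B, with 20 to 64 counts per library, ranged from 3.47 to 6.86 CPM, 2.19 to 7.34 CPM and 2.82 to 5.78 CPM in the same groups. For both, each group overlapped the others.

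**Figure D2:**
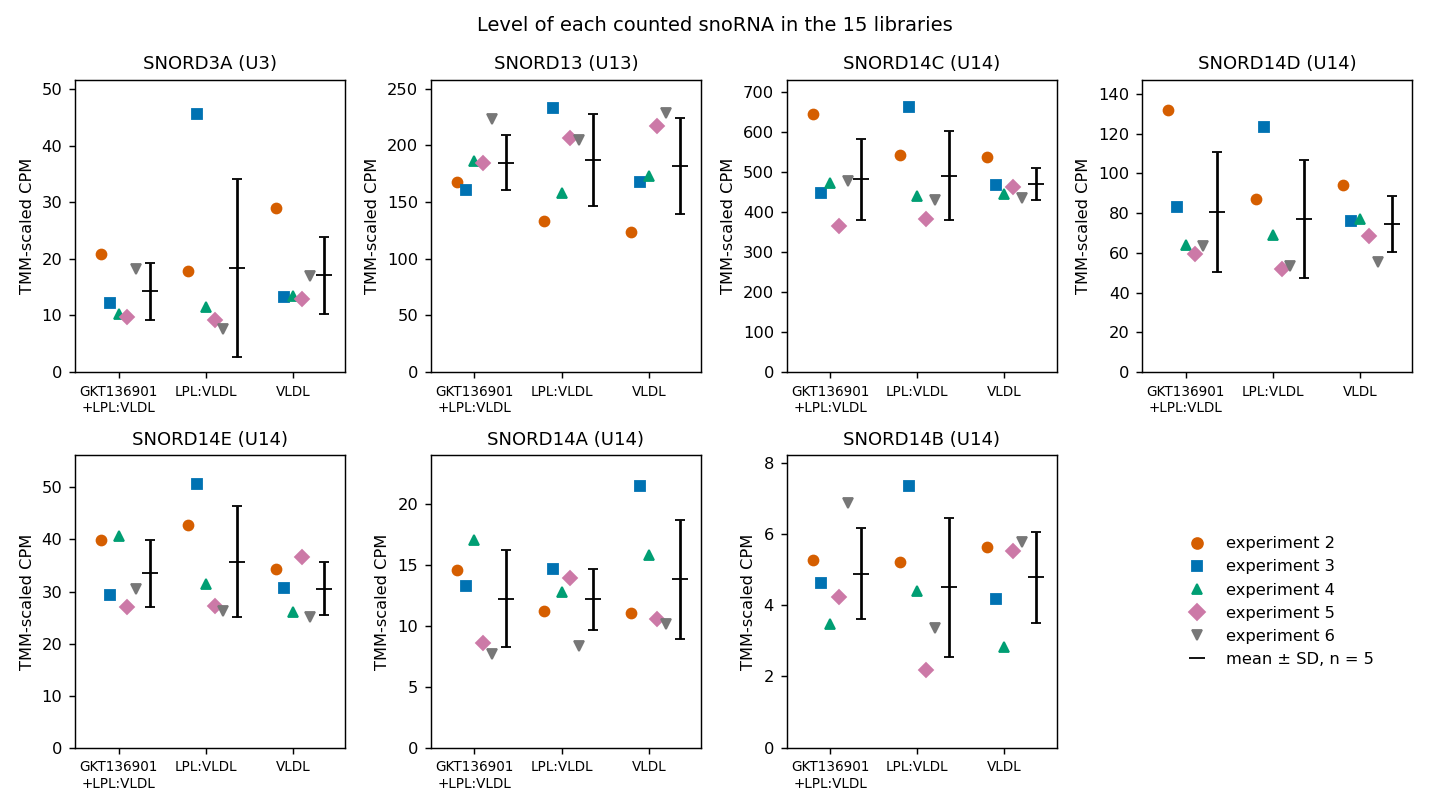
Level of the 7 counted snoRNAs in TMM-scaled CPM (y axis) in each library by group (x axis), with the experiment as colour and marker and the mean ± SD of 5 libraries as bars. The groups overlap in every panel; the highest SNORD3A library is LPL:VLDL of experiment 3, at 45.7 CPM.

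The first question of the design was whether GKT136901 altered the response to LPL:VLDL. The means of the 7 countable snoRNAs differed between the 2 groups by less than the SD of either group's libraries, and SNORD3A had the largest log2 difference. SNORD14C averaged 482 ± 102 CPM in GKT136901+LPL:VLDL cells and 492 ± 112 CPM in LPL:VLDL cells (SD, n = 5 each), a log2 difference of -0.027 with a 95% interval of -0.44 to 0.38. SNORD13 averaged 185 ± 24.2 CPM in GKT136901+LPL:VLDL cells and 187 ± 40.5 CPM in LPL:VLDL cells, with a log2 difference of -0.020 (-0.46 to 0.42). SNORD3A had a difference of -0.36 (-1.16 to 0.44), from means of 14.3 ± 5.04 CPM in GKT136901+LPL:VLDL cells and 18.4 ± 15.8 CPM in LPL:VLDL cells. The differences of SNORD14A, SNORD14B, SNORD14D and SNORD14E were 0.0057, 0.12, 0.064 and -0.092. By edgeR's quasi-likelihood test with Benjamini-Hochberg adjustment over all 4099 genes, 0 of the 7 passed an adjusted p of 0.05, against a background of 0% of genes higher and 0% lower. At an unadjusted p under 0.05, edgeR gave 87 of 4099 genes (2.12%) and 0 of the 7.

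The second question was what LPL treatment of the lipoprotein did. SNORD14E had the largest difference, with 35.7 ± 10.6 CPM in LPL:VLDL cells and 30.6 ± 5.02 CPM in VLDL cells. Its log2 difference was 0.22 (-0.29 to 0.74), and it was higher in LPL:VLDL cells in 4 of 5 experiments. SNORD14C averaged 492 ± 112 CPM in LPL:VLDL cells and 470 ± 40.0 CPM in VLDL cells, a log2 difference of 0.066 (-0.34 to 0.48). For SNORD13 the difference was 0.041 (-0.40 to 0.49), and for SNORD14A, SNORD14B and SNORD14D it was -0.18, -0.090 and 0.050. SNORD14D averaged 76.9 ± 29.5 CPM in LPL:VLDL cells and 74.3 ± 14.1 CPM in VLDL cells, yet it was lower in LPL:VLDL cells in 4 of 5 experiments. None of the 7 passed the edgeR test, and neither did any other gene (background 0% in both directions, 1.88% at an unadjusted p under 0.05).

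Cells given GKT136901 with LPL:VLDL were also set against VLDL cells. These 3 comparisons share their groups, so their values are not independent. SNORD3A had a log2 difference of -0.26 (-1.06 to 0.54) and was lower in GKT136901+LPL:VLDL cells in 4 of 5 experiments. The differences of the other 6 ran from -0.18 for SNORD14A to 0.13 for SNORD14E. Again 0 of the 7 and 0 of 4099 genes passed, with 91 genes (2.22%) at an unadjusted p under 0.05. The lowest adjusted p of the 7 by edgeR over all 3 comparisons was 0.999, and 0.988 with the experiment as a block. With the block, 1 other gene (0.0244%) passed as higher in LPL:VLDL than in VLDL cells and 0% of genes passed elsewhere. No snoRNA of the 7 was higher or lower in 5 of 5 experiments in any comparison. The background was 3.2% of genes higher and 3.32% lower in GKT136901+LPL:VLDL minus LPL:VLDL, 3.44% and 3.46% in LPL:VLDL minus VLDL, and 3.66% and 3.73% in GKT136901+LPL:VLDL minus VLDL. Likewise 0 of the 7 had groups that did not overlap, against 0.488%, 0.561% and 0.512% of genes in these comparisons. DESeq2 and limma voom called 0 genes in each comparison as well, with 126 to 128 and 119 to 158 genes at an unadjusted p under 0.05. A p that misses the threshold does not show equal levels. Over the 3 comparisons, the intervals of SNORD14C and SNORD13 reached from -0.46 to 0.49 on the log2 scale in the model of groups only. With the experiment as a block, their intervals reached from -0.26 to 0.31.

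**Figure D3:**
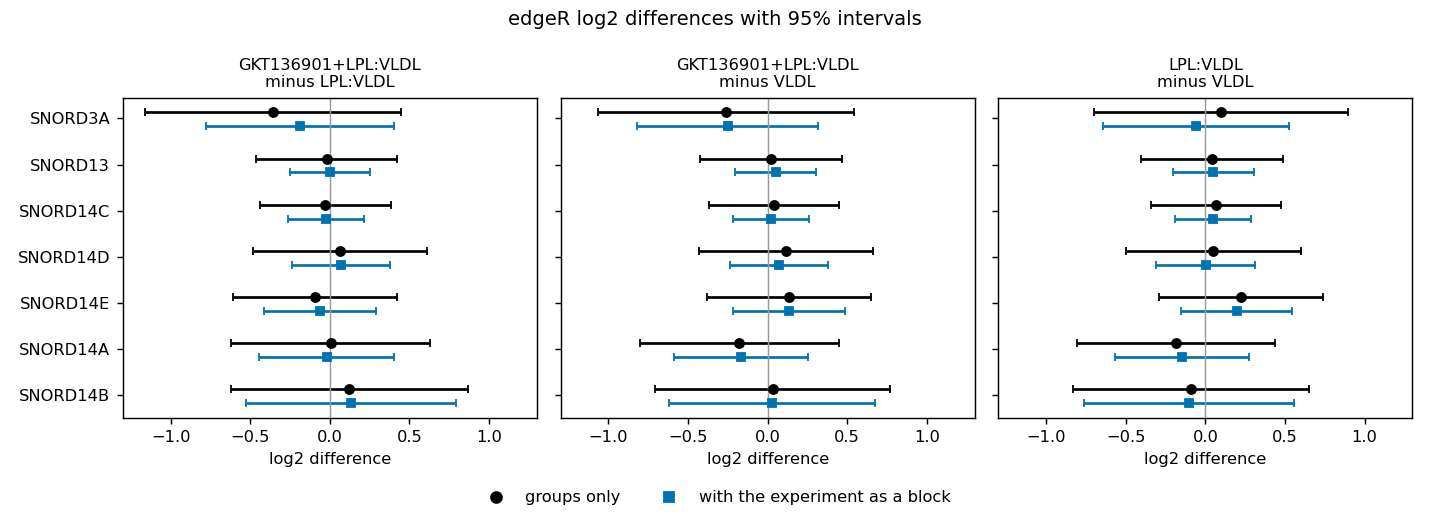
Log2 differences of the 7 counted snoRNAs (x axis) with 95% intervals in the 3 comparisons, from the edgeR model of groups only (black circles) and with the experiment as a block (blue squares). Every interval contains 0, and SNORD3A has the widest of the group-only intervals, -1.16 to 0.44 for GKT136901+LPL:VLDL minus LPL:VLDL.

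The 7 were also read against all tested box C/D snoRNAs, a set that includes them. They had log2 differences above 0 for 3, 5 and 5 genes in GKT136901+LPL:VLDL minus LPL:VLDL, LPL:VLDL minus VLDL and GKT136901+LPL:VLDL minus VLDL. Their medians were -0.020, 0.050 and 0.033. Over the 166 tested SNORD genes the counts above 0 were 50, 122 and 88, with medians of -0.099, 0.10 and 0.012. Over all tested genes the shares above 0 were 47.9%, 50.7% and 49.6%.

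The experiments, in contrast to the groups, gave calls. SNORD14D changed between experiments, with means of 104, 94.1, 70.2, 60 and 57.5 CPM in experiments 2 to 6 (n = 3 each), a range of 0.86 on the log2 scale (adjusted p = 0.00322, edgeR's quasi-likelihood test of the experiment term). It was the 1 call among the 7, while 455 of 4099 genes (11.1%) and 71 of 166 SNORD genes (42.8%) were called. Most of the 4099 genes had a mean below 10 CPM, and the share called was larger when those were left out. Like SNORD14D, 2.71% of genes were called with their highest level in experiment 2. For 0 of the 7 did all 3 libraries of experiment 2 lie above the other 12 (3.32% of genes) or below them (4.64%). Without experiment 2 the edgeR adjusted p of SNORD14D was 0.101 and the genes called numbered 145. The means of SNORD14D in the 4 experiments left ran from 94.1 CPM in experiment 3 to 57.5 CPM in experiment 6. A high level in experiment 3 was not particular to SNORD14D, since 131 of the 166 SNORD genes were highest in that experiment in this scaling. SNORD13 had its lowest mean in experiment 2 and its highest in experiment 6, at 142, 187, 172, 203 and 219 CPM, with an edgeR adjusted p of 0.0550. SNORD3A had an edgeR adjusted p of 0.0591, with means of 22.6, 23.8, 11.7, 10.6 and 14.3 CPM. The adjusted p of SNORD14C was 0.109 and those of SNORD14A, SNORD14E and SNORD14B were 0.10, 0.505 and 0.762.

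**Figure D4:**
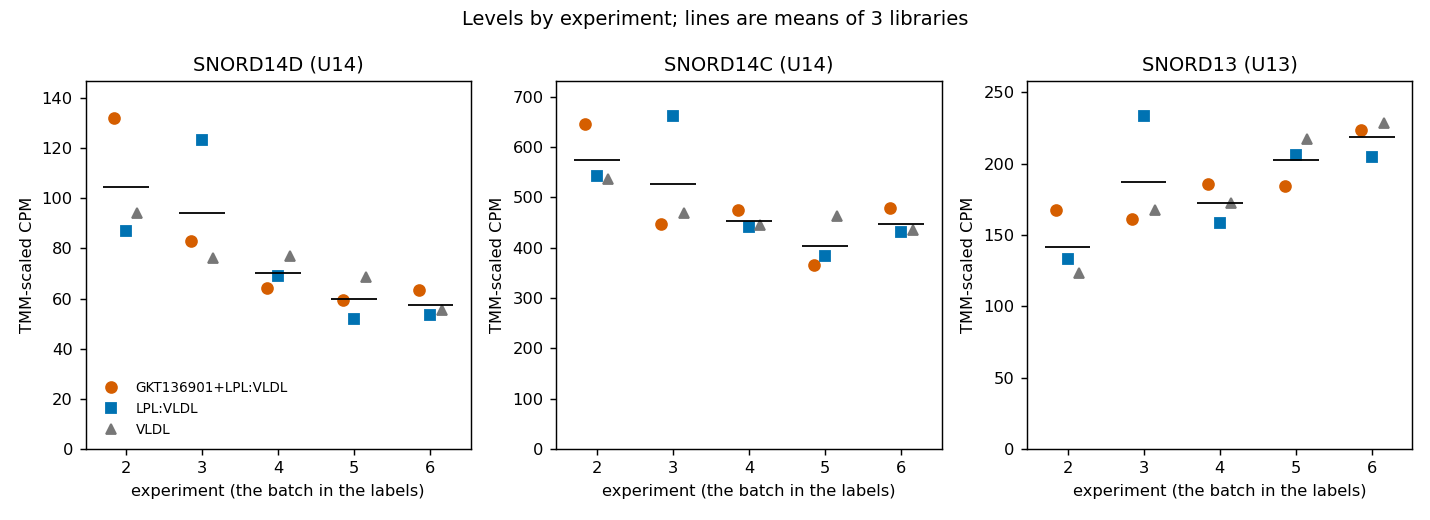
Levels of SNORD14D, SNORD14C and SNORD13 in TMM-scaled CPM (y axis) by experiment (x axis), with 1 marker per library and group and a line at the mean of 3. SNORD14D has means of 104 and 94.1 CPM in experiments 2 and 3 and 57.5 CPM in experiment 6, while SNORD13 has its lowest mean, 142 CPM, in experiment 2.

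Experiment 2 moved with several other measures, and their part in these results was not tested. Its TMM factors were 1.16 to 1.34, against 0.765 to 1.03 in the other experiments. Its myeloid marker sums were 81.1 to 127 CPM, against 28.1 to 60.6 CPM. Of the 10 tested myeloid markers, 4 were called between experiments (CSF1R, ITGB2, SPP1 and LAPTM5), each highest in experiment 2. MSR1 and TYROBP, not called, were highest in experiment 6, and MSR1 was lowest in experiment 2. The HEK-293 marker sums were 7.66 to 15.8 CPM in experiment 2, against 3.07 to 15.5 CPM. Fragments of HSPA8 mRNA averaged 15.6 CPM in experiment 2, against 3.91 to 6.71 CPM in the other experiments. HSPA8 itself was called between experiments (edgeR adjusted p = 0.000296). When the libraries were scaled on the SNORD genes alone, SNORD14C was at 648, 647 and 627 CPM in the GKT136901+LPL:VLDL, LPL:VLDL and VLDL libraries of experiment 2 and at 405 to 470 CPM in the other 12. With that scaling SNORD14C, SNORD14D and SNORD13 were called between experiments by edgeR (adjusted p = 0.00313, 0.000434 and 0.00291). This is 3 of the 7, against a background of 10.2% of all genes and 15.7% of SNORD genes. Neither share is a close match for these 3. Most of all the genes tested had a mean below 10 CPM, unlike these 3. The SNORD genes set this scaling themselves, and 42.8% of them were called with the TMM factors of all genes. SNORD14C and SNORD14D then had all 3 libraries of experiment 2 above the other 12, which 4.56% of genes and 10.2% of SNORD genes had. The means of SNORD14D in this scaling were 115, 74.4, 67.7, 68.2 and 57.8 CPM in experiments 2 to 6. SNORD13 was instead highest in experiments 5 and 6, at 231 and 221 CPM, and at 149 to 167 CPM in experiments 2 to 4.

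Relative to length, the order of the genes by counts was steady at the top. Whether counts in these small RNA libraries scale with length, or follow the amounts of the RNAs, was not tested. SNORD14C averaged 5469 ± 956 TMM-scaled CPM per kilobase over the 15 libraries (SD), SNORD13 1775 ± 326, SNORD14D 888 ± 275 and SNORD14E 416 ± 93.5. Each of these was above the next in 15 of 15 libraries. SNORD14A averaged 138 ± 40.3 CPM per kilobase, SNORD3A 76.4 ± 44.9 and SNORD14B 51.9 ± 15.7, and here each was above the next in 12 of 15 libraries only. Because SNORD3A reads that miss positions 78 to 108 cannot be assigned to it, its place in the order is that of its countable reads. By mean CPM, SNORD14C ranked 63 among the 166 tested SNORD genes, SNORD13 81, SNORD14D 106 and SNORD3A 129.

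The 3 copies hosted by HSPA8 were not counted equally. SNORD14D had 15.8% of the count of SNORD14C on average (12.4% to 20.5% per library), and SNORD14E had 6.90% (5.80% to 8.59%). The SNORD14D share was 18.0%, 17.8%, 15.5%, 14.9% and 12.8% in experiments 2 to 6, and by group it was 16.4 ± 3.12% in GKT136901+LPL:VLDL cells, 15.3 ± 2.40% in LPL:VLDL cells and 15.7 ± 1.98% in VLDL cells (SD, n = 5). In RPS13, SNORD14B had 41.0% of the count of SNORD14A, but with 15.8% to 89.6% per library the ratio was loose. These ratios need no scaling between libraries.

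**Figure D5:**
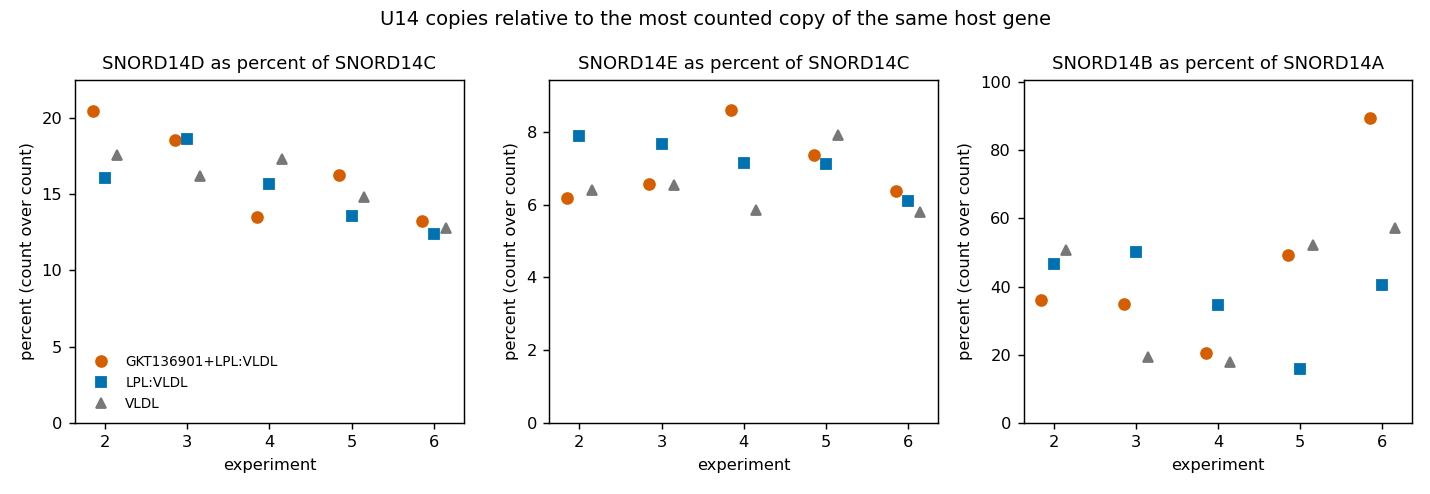
Counts of U14 copies as a percent of the most counted copy of the same host gene (y axis) in each library by experiment (x axis), with markers for the groups. SNORD14D runs from 12.4% to 20.5% of SNORD14C with its lowest values in experiment 6, SNORD14E from 5.80% to 8.59%, and SNORD14B from 15.8% to 89.6% of SNORD14A.

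Across the 15 libraries, which share their experiments and scaling, the copies in HSPA8 were positively correlated. Pearson's r of log2 levels was 0.90 between SNORD14C and SNORD14D and 0.82 between SNORD14C and SNORD14E, and 0.715 between SNORD14D and SNORD14E. With HSPA8 mRNA fragments it was 0.58 for SNORD14C, 0.452 for SNORD14D and 0.445 for SNORD14E. Outside HSPA8 it was 0.59 for SNORD3A and 0.53 for SNORD14B, but -0.28 for SNORD13 and -0.26 for SNORD14A. SNORD14A and SNORD14B, in RPS13, had r = -0.30. SNORD3A had r = 0.83 with SNORD14C, 0.77 with SNORD14D and 0.74 with SNORD14B, while SNORD13 had r between -0.36 and 0.067 with the other 6. Among the 471 genes compared, those with a mean of at least 10 CPM, the pattern nearest to SNORD13 was that of SNORD63B (0.88), followed by SNORD59B and RNU7-1, the U7 RNA of histone message processing. The nearest to SNORD3A were SNORA71A (0.86), SNORA18 and SNORD14C, and the nearest to SNORD14A were SCARNA4 (0.88), CXCL8 and MIR190B. The nearest to SNORD14C were SNORD14D, SNORD94 (0.89) and RNY4, those to SNORD14D were SNORD14C, SNORD83B (0.86) and SNORD4A, and those to SNORD14E were SNORD14C, SNORA68 (0.81) and SNORA73B.

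Of 4 other RNAs of ribosomal RNA processing, all were tested and 0 were called between groups. RMRP, the RNA of RNase MRP, averaged 381 ± 46.1 CPM in GKT136901+LPL:VLDL cells, 393 ± 76.4 CPM in LPL:VLDL cells and 361 ± 61.8 CPM in VLDL cells. Its log2 difference of LPL:VLDL minus VLDL was 0.12 (-0.28 to 0.53). SNORA73A and SNORA73B, both genes of U17, and SNORD22, the U22 RNA, averaged 11.5 to 22.3 CPM in the 3 groups. Between experiments RMRP and SNORD22 were called by edgeR (adjusted p = 0.00989 and 0.0167), which is 2 of 4 against 11.1% of all tested genes and 42.8% of SNORD genes, and RMRP was lowest in experiment 2, at 314 CPM against 343 to 452 CPM in the others.

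Protein genes of the pathway were present only as sparse fragments. Of 11 genes for core and assembly proteins of box C/D particles 1 was tested, of 15 for U3 and U8 maturation 4, of 41 for the small subunit processome 6, and of the 2 acetylation partners of U13, NAT10 and THUMPD1, 0. None of the 11 tested was called between groups (background 0%) or between experiments (background 11.1%). KRR1, a processome protein gene, had 0 to 2 counts per library in GKT136901+LPL:VLDL cells, 1 to 15 in LPL:VLDL cells and 9 to 22 in VLDL cells, which is no overlap between the first and the last group, as for 0.512% of genes. Its unadjusted p for GKT136901+LPL:VLDL minus VLDL, 0.000557, was the lowest of all genes by edgeR, and its adjusted p was 0.999. In that comparison KRR1 had a log2 difference of -4.135, but 4 of the 6 tested processome genes were above 0 (median 0.215). KRR1 passed the filter on low counts through its LPL:VLDL and VLDL libraries. How far such filtering favours genes with a gap between groups was not tested. NOP58, a core protein gene, averaged 0.592 ± 0.526 CPM in GKT136901+LPL:VLDL cells, 0.340 ± 0.419 CPM in LPL:VLDL cells and 1.53 ± 0.563 CPM in VLDL cells. For LPL:VLDL minus VLDL its log2 difference was -2.07 (-4.00 to -0.15), with an edgeR adjusted p of 0.999. That difference rests on few reads, 0 to 12 counts per library in LPL:VLDL cells and 8 to 19 in VLDL cells. The interval is not adjusted for the number of genes tested. The unadjusted edgeR p was 0.0360, and 1.88% of all genes had one under 0.05.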

How the data were processed

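Small RNA libraries were made with the NEBNext kit from TRIzol RNA and sequenced on a NovaSeq X, per the labels' protocols. The deposited table holds raw counts of reads, not normalized, for every gene and library, and 0 columns lacked a sample. Per the submitters' processing notes, fastp 0.24.0, STAR 2.7.11b and hg38 were used. Per the file headers, featureCounts 2.0.6 assigned reads to exons of a RefSeq annotation without options for strand, multiple mapping or overlapping genes, so reads of identical copies and of overlapping exons were lost. The read length is not given in the sources used here.

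Genes were filtered with filterByExpr (minimum count 10, total 15), which kept 4099 genes with 99.66% of the counts. The counts were scaled with TMM factors and tested in 1 model of 3 groups with edgeR 4.0.16 (R 4.3.3), glmQLFit and glmQLFTest, two-sided, with Benjamini-Hochberg adjustment over all tested genes and a threshold of 0.05. CPM values are counts divided by TMM-scaled library sizes; marker sums used the total counts alone. Experiments were tested in the model of group and experiment. The code was tested on simulated data. Genes were named by a rule: all 8 genes, their copies, hosts and overlapping genes, the pathway lists, and for each of the 8 with at least 10 CPM the 3 genes of highest correlation. Genes, lists and rule were chosen with earlier results of these data known.

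The labels put libraries of the same replicate number in the same experiment, which pairs them. Their deviations from the group mean had correlations of 0.0664 to 0.379 in the 15 such pairs, with a median of 0.1145. In the other 60 pairs they ran from -0.148 to 0.148, with a median of -0.070, and the ranges overlapped. The pairing is set by the design and does not rest on these correlations. The main model leaves it out, which widens the intervals of the snoRNAs. For SNORD14C in GKT136901+LPL:VLDL minus LPL:VLDL the standard error was 0.20 in the main model and 0.12 with the experiment as a block. The experiment as a block was an alternative, as were other scalings, filters, DESeq2 1.42.0, limma voom 3.58.1, fits of only the groups compared, and leaving libraries out. No library was a repeat of another: within groups, the chi-square divided by its degrees of freedom was 12.9 to 342. Libraries held 5076917 to 9757123 counts. Sequences and their coordinates came from GENCODE 29; that of SNORD13 is not shown.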

Additional observations from a re-analysis of the deposited data

Results flagged for a closer look

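In 2 of 21 sets of 5 libraries (7 snoRNAs in 3 groups), 1 library lay far from the other 4. The rule was a gap to the nearest library of more than 0.71 of the range, in CPM. Chance alone gives this in about 1 in 20 sets if values are normally distributed. Whether these levels are was not tested, and the sets share libraries, so that rate is only a guide. Both flagged sets belong to SNORD3A, with ratios of 0.733 and 0.743. Its LPL:VLDL library of experiment 3 was at 45.7 CPM, and the next highest LPL:VLDL library was at 17.8 CPM. Its VLDL library of experiment 2 was at 29 CPM, and the next highest VLDL library was at 17.0 CPM. Each of the 2 libraries had 330 SNORD3A counts. The LPL:VLDL library also had the lowest TMM factor, 0.765, the highest SNORD share of its counts, 65.9%, and the highest SNORD14C level, 662 CPM. The part of these measures in the SNORD3A value was not tested.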

How the results depend on the processing

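The 7 countable snoRNAs were fitted under 522 combinations of comparison and alternative; 0 were called and the lowest adjusted p was 0.706, while 104 changed sign, most of them with differences near 0. Library-size scaling shifted all genes by 0.10 in GKT136901+LPL:VLDL minus LPL:VLDL, by -0.14 in LPL:VLDL minus VLDL and by 0.43 in experiment 2 against the others, and scaling on SNORD genes shifted the last by 0.20. For GKT136901+LPL:VLDL minus LPL:VLDL, the differences of changed sign were 0.10 (SNORD13) and 0.070 (SNORD14C) with library-size scaling, 0.053 (SNORD13) and 0.037 (SNORD14C) with scaling on SNORD genes, 0.028 (SNORD13) and 0.0096 (SNORD14C) with a minimum mean of 10 CPM, 0.010 (SNORD13) and -0.036 (SNORD14A) with limma voom, 0.00021 (SNORD13) and -0.019 (SNORD14A) with the experiment as a replicate block, 0.061 (SNORD13) and 0.0017 (SNORD14E) and 0.039 (SNORD14C) with the block with scaling on SNORD genes, -0.013 (SNORD14A) with no filter. For LPL:VLDL minus VLDL, the differences of changed sign were -0.10 (SNORD13) and -0.11 (SNORD14D) and -0.076 (SNORD14C) and -0.15 (SNORD3A) with library-size scaling, -0.0054 (SNORD13) and -0.048 (SNORD14D) and -0.00097 (SNORD14C) and -0.14 (SNORD3A) with scaling on SNORD genes, -0.026 (SNORD13) and -0.052 (SNORD14D) and -0.016 (SNORD14C) and -0.10 (SNORD3A) with a minimum mean of 10 CPM, -0.00043 (SNORD13) and -0.053 (SNORD14D) and -0.0035 (SNORD14C) and -0.13 (SNORD3A) with the block with scaling on SNORD genes, -0.013 (SNORD14D) and -0.17 (SNORD3A) with limma voom, -0.062 (SNORD3A) with the experiment as a replicate block. For GKT136901+LPL:VLDL minus VLDL, the differences of changed sign were -0.0022 (SNORD13) and -0.034 (SNORD14B) and -0.0055 (SNORD14C) with library-size scaling, -0.0035 (SNORD13) with no filter, -0.0065 (SNORD14C) with a minimum mean of 10 CPM. Leaving out 1 library or, with the block, 1 experiment at a time gave these ranges of the log2 difference, in the same order of comparisons: SNORD3A -0.57 to 0.34 and -0.62 to 0.36 and -0.43 to -0.00084, SNORD13 -0.12 to 0.14 and -0.083 to 0.14 and -0.10 to 0.12, SNORD14C -0.14 to 0.12 and -0.088 to 0.15 and -0.083 to 0.12, SNORD14D -0.17 to 0.30 and -0.20 to 0.17 and -0.13 to 0.20, SNORD14E -0.19 to 0.13 and 0.035 to 0.36 and 0.0087 to 0.29, SNORD14A -0.16 to 0.16 and -0.30 to 0.030 and -0.34 to 0.026, SNORD14B -0.084 to 0.37 and -0.37 to 0.18 and -0.14 to 0.15. The replicate block called 1 gene for LPL:VLDL minus VLDL in place of 0, and 0 to 2 with experiments left out, none of them among the 7; it changed no other call between groups. The 455 of 4099 genes called between experiments became 298 of 473 with a minimum mean of 10 CPM. That is fewer genes but a larger share of those tested. With libraries or experiments left out, 145 to 506 genes were called. SNORD14D stayed called between experiments in 26 of 27 alternatives, SNORD13 was called in 14, SNORD3A in 11 of 27, SNORD14C in 5, SNORD14A in 2 and SNORD14E in 2 (adjusted p down to 0.0427 and 0.0101); SNORD14D, SNORD13, SNORD3A and SNORD14C lost or missed the call without experiment 2. The replicate block with scaling on SNORD genes, and leaving out single libraries in the test of experiments, were chosen after seeing the data. The causes of these changes were not tested. No value exists for SNORD14B with a minimum of 10 CPM. Depth is lowest for SNORD14B (20 to 64 counts per library), SNORD14A (62 to 211) and SNORD3A (57 to 330), and the count table cannot give U8.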
